A study of Mus musculus with 2 samples.

Results

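The miR-26 genes of the mouse are Mir26a-1, Mir26a-2 and Mir26b. They were taken by name from GENCODE M21 among 2202 annotated miRNA genes, and all 3 were found. Total RNA came from the gastrocnemius, which lies in the calf, of 2 mice aged 10 days, and microRNA libraries were made from RNA shorter than 30 bases. Both mice were female and of strain B6CASTF1/J, an F1 hybrid of C57BL/6 and CAST. No treatment or mutant is labelled and both mice belong to a single group, so the question answered here is how much of each gene was counted and how far the animals differed. The labels number the mice as biological replicates 1 and 2, and those numbers are kept.

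A miRNA is cut from a hairpin precursor, whose 5′ and 3′ sides each can give a mature strand of about the length of the reads selected here. The mature strand is loaded into an Argonaute protein and pairs with messenger RNAs mainly through its seed, bases 2 to 8. The miR-26 genes lie in genes of the CTDSP family, small phosphatases that remove phosphate from the tail of RNA polymerase II and take part in silencing neuronal genes outside the nervous system. In muscle precursor cells, miR-26a is known to repress Ezh2, a histone methyltransferase that holds back differentiation, and the signalling proteins Smad1 and Smad4.

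The mature sequences are shown first because they fix which reads a count can hold. RefSeq entries on build GRCm38.p6 were found for all 3 genes, and the hairpins equal those of GENCODE M21. Capitals mark the seed.
miR-26a-5p, from Mir26a-1 and from Mir26a-2: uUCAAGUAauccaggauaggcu
miR-26b-5p, from Mir26b: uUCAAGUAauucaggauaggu
miR-26a-1-3p, from Mir26a-1: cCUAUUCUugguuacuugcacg
miR-26a-2-3p, from Mir26a-2: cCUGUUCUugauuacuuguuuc
miR-26b-3p, from Mir26b: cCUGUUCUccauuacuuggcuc
The 5p strand of both Mir26a genes is identical in all 22 bases. miR-26b-5p has 21 bases and differs from it by C11U and C21U, with the base of miR-26a first and positions counted from 1 at the 5′ end. The seed UCAAGUA is therefore common to the 3 genes, and no other gene with a mature entry in the RefSeq table has it.

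The 3p strands differ between all 3 genes. miR-26a-1-3p and miR-26a-2-3p are separated by 6 substitutions, A4G, G11A, C19U, A20U, C21U and G22C, with the base of miR-26a-1-3p first. The first of these lies in the seed. miR-26a-2-3p and miR-26b-3p share the seed CUGUUCU and differ by 4 substitutions, U9C, G10C, U19G and U20C, with the base of miR-26a-2-3p first. On the 3p side Mir26a-2 thus has the seed of Mir26b and not that of its own copy. That seed also occurs in the mature entries of Mir6932 and Mir7039.

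The hairpins show how far the identity of the copies reaches. Capitals mark the longest stretch that each hairpin shares with another miR-26 hairpin.
Mir26a-1: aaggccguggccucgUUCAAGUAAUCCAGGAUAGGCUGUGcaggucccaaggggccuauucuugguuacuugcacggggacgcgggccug
Mir26a-2: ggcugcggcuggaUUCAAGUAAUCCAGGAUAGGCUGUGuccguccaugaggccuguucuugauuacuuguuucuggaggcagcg
Mir26b: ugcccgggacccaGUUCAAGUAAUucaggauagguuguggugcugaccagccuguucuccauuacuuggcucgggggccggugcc
The copies share 25 bases, which begin at the first base of miR-26a-5p and run 3 bases past its end. Mir26b shares at most 11 bases with Mir26a-1 and 10 with Mir26a-2. Over whole hairpins, aligned end to end, 72.5% of columns were identical between the copies, 68.5% between Mir26a-1 and Mir26b and 66.3% between Mir26a-2 and Mir26b.

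**Figure D1:**
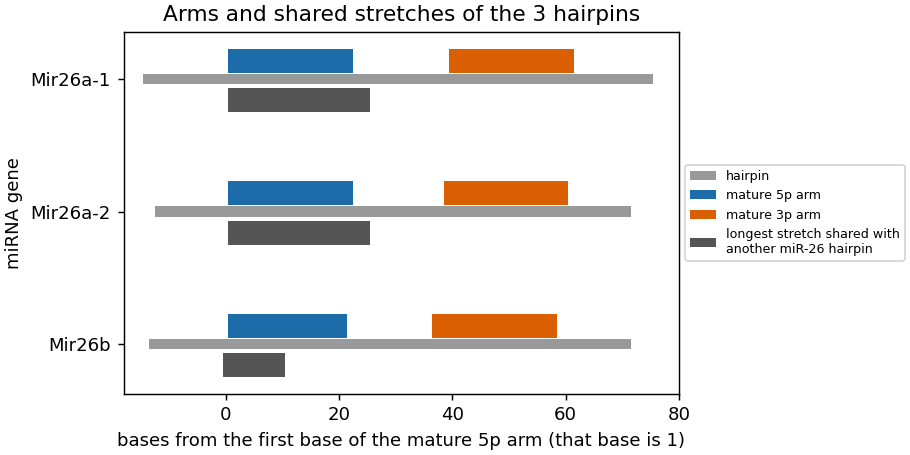
Positions of the mature arms and of the longest stretch shared with another miR-26 hairpin, in bases from the first base of the mature 5p arm (that base is 1). The shared stretch of Mir26a-1 and Mir26a-2 covers 25 bases, the whole 5p arm and 3 bases beyond it, while that of Mir26b covers 11 bases.

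This identity matters because the counting left out every read with more than 1 matching place. A read that starts at the first base of miR-26a-5p matches both copies at every length from 18 to 25 bases. From 26 bases on, such a read matches a single copy. A read that starts 1 base earlier, or at the first base of a 3p strand, matches 1 copy at every length from 18 to 29 bases. In windows of 22 bases, 4 of 69 in Mir26a-1 and 4 of 63 in Mir26a-2 recur in the other copy. In Mir26b 0 of 64 such windows recur in any annotated precursor, and 0 of 68 windows of 18 bases. The search asked for exact identity, and it covered annotated precursors on both strands and no other part of the genome. Whether the counting allowed mismatches is not known, and reads that differ by 1 base could then match more places.

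The genes lie at like places in their hosts. Mir26a-1 (ENSMUSG00000065513.1, chr9:119031796-119031885, mm10, plus strand, 90 bases) lies in intron 5 of Ctdspl-201, a transcript with 8 exons. Mir26a-2 (ENSMUSG00000065430.1, chr10:126995530-126995613, plus strand, 84 bases) lies in intron 5 of Ctdsp2-202, also with 8 exons. Mir26b (ENSMUSG00000065468.1, chr1:74394310-74394394, plus strand, 85 bases) lies in intron 4 of Ctdsp1-201, which has 7 exons. In each of these 3 protein-coding transcripts, 3 exons follow the intron, and gene and host lie on the same strand. The introns differ in length, with 3283 bases in Ctdspl, 1946 in Ctdsp2 and 564 in Ctdsp1.

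Mir26a-2 is not purely intronic in the annotation. Its last base is also the first base of exon 1 in Ctdsp2-201 and Ctdsp2-203, transcripts that start there. Mir26a-1 and Mir26b overlap no exon of their hosts. None of the 3 genes has another miRNA gene on the opposite strand, and antisense reads were 0 in either library, so counts without strand equal the sense counts. The nearest other miRNA gene is Mir546, named after its values were seen, 2826 bases from Mir26a-2 on the same strand and within the bounds of Ctdsp2. It had 1 read in replicate 1 and 0 in replicate 2. The host messenger RNAs themselves were not measured in these libraries.

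The libraries held 3510897 and 3949733 sense reads on miRNA genes in replicates 1 and 2, of 8152102 and 10176117 reads in all. Levels are counts per 1e6 of these sense reads (CPM), and a count of 0 allows up to 0.854 and 0.760 CPM. Reads aligned to several places were 3469647 (42.6%) and 4718603 (46.4%). The muscle label was checked with 9 striated muscle miRNAs, which together held 11.7% and 9.61% of the sense reads, nearly all counted on Mir206. The Mir1a and Mir133a genes among them share windows of 22 bases with other precursors. Their reads may have been set aside, so their low counts do not show low levels. The 6 lists of other cell types ran from 0.0176% to 4.63% of a library, the highest being Mir126a of endothelium. Of the 7 neural and glial markers, Mir338 had 853 and 1449 reads, or 243 and 367 CPM. Mir9-2 and the 3 Mir124a genes were at 0, but they share windows with copies, so this sets no limit.

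Mir26b was among the most abundant miRNA genes of this muscle by counted reads, which leave out those with several matching places. It had 74668 reads in replicate 1 and 94983 in replicate 2, or 21268 CPM (Wilson 95% interval 21117 to 21419) and 24048 CPM (23897 to 24200). Its mean was 22658 ± 1966 CPM (SD, n = 2), which is 2.27% ± 0.197 of the sense reads, and it held rank 13 of 2202 in each library. The 2 values lie close together on the scale of all genes, though their counting intervals do not overlap.

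Mir26a-2 and Mir26a-1 were counted at a far lower level. Mir26a-2 had 117 and 141 reads, or 33.3 CPM (27.8 to 39.9) and 35.7 CPM (30.3 to 42.1), with a mean of 34.5 ± 1.68 CPM (SD, n = 2) and rank 217. Mir26a-1 had 38 and 52 reads, or 10.8 CPM (7.89 to 14.9) and 13.2 CPM (10.0 to 17.3), with a mean of 12.0 ± 1.66 CPM (SD, n = 2) and rank 259. Both copies passed the detection limit of 2 CPM in both animals, as did 332 genes in all. The order Mir26b, Mir26a-2, Mir26a-1 was the same in both animals, and the ranges of the 3 genes did not overlap.

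**Figure D2:**
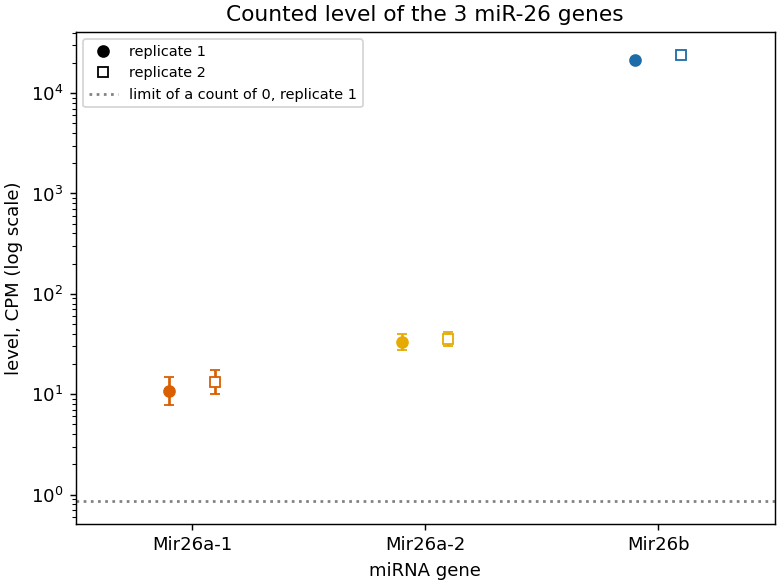
Level of each miR-26 gene in CPM on a log scale, with filled circles for replicate 1, open squares for replicate 2 and bars for Wilson 95% intervals, which cover counting error only. Mir26b lies at 21268 and 24048 CPM, Mir26a-2 between 33.3 and 35.7 CPM and Mir26a-1 between 10.8 and 13.2 CPM.

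Within each library, the counted reads of Mir26b far outnumbered those of its relatives. Replicate 1 gave 481.7 reads of Mir26b for each read of Mir26a-1 and Mir26a-2 together (exact 95% interval 411.5 to 567.7), and replicate 2 gave 492.1 (427.3 to 569.8). The mean was 486.9 ± 7.36 (SD, n = 2). The animals' ratios lie well within each other's counting interval. Mir26b thus held 99.8% of the family's counted reads in each library. Each hairpin gives reads of about 1 mature length, so counts were not divided by gene length, and doing so gave a ratio of 489.6.

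The copies themselves were not counted equally. Of the reads of both copies, Mir26a-2 held 75.5% in replicate 1, with a Wilson 95% interval of 68.1% to 81.6%. The share was 73.1% in replicate 2 (66.4% to 78.8%), on average 74.3% ± 1.72 (SD, n = 2). Replicate 1 had 3.08 reads of Mir26a-2 for each read of Mir26a-1 (exact 95% interval 2.12 to 4.56), and replicate 2 had 2.71 (1.96 to 3.80). Every interval lies above equal shares, and the intervals of the animals overlap. Since a read lying within the 25 shared bases was counted on neither gene, this is the balance of the copy-specific reads only. Whether those reads come from the 5p or the 3p strand cannot be read from counts per gene.

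**Figure D3:**
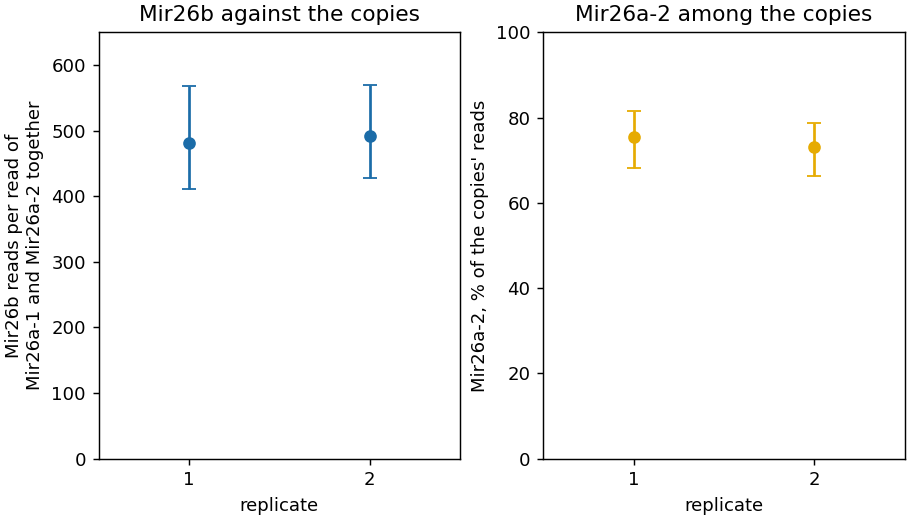
Left, reads of Mir26b per read of Mir26a-1 and Mir26a-2 together in each replicate, with exact 95% intervals. Right, share of Mir26a-2 among the reads of both copies in percent, with Wilson 95% intervals. In both panels the intervals of the replicates overlap.

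The counts on Mir26a-1 and Mir26a-2 are a lower limit for the reads of these genes, both arms together. They set no limit for miR-26a-5p alone. The copies together held 155 and 193 reads, while reads set aside for matching several places numbered 3469647 and 4718603. If 74513 of these in replicate 1 and 94790 in replicate 2 came from the Mir26a genes, the total of the copies would equal that of Mir26b. That is 2.15% and 2.01% of the reads set aside. How many of them come from the Mir26a genes was not tested, since the files do not say where these reads aligned. The ratio of 486.9 therefore describes counted reads, and Mir26b and miR-26a cannot be ranked against each other.

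Of the 3 genes, only Mir26b passed a test of the difference between the libraries. Each gene's counts were set against the library totals in an exact binomial test, two-sided, with Benjamini-Hochberg adjustment over 395 genes that had at least 10 reads in both libraries together. Mir26b was 1.13-fold higher in replicate 2 (95% interval 1.12 to 1.14, log2 ratio 0.18, exact adjusted p = 2.72e-138). Of all genes tested, 41.3% had an adjusted p under 0.05, 17.0% higher in replicate 2 and 24.3% higher in replicate 1. That share covers genes from 10 reads up and is not the share at the depth of Mir26b. The genes nearest to it in mean CPM, Mir143, Mir99a, Mir335 and Mir431, were all called as well. With a difference of at least 2-fold required too, 7.09% of all genes tested passed and Mir26b did not. The test compares these 2 libraries, each of a single mouse, and not conditions. Fewer cells of a type and less RNA per cell cannot be told apart in such tissue.

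Markers of several cell types also differed between the same libraries. From replicate 1 to replicate 2, the striated muscle list went from 11.7% to 9.61% of the sense reads, smooth muscle and stroma from 2.35% to 2.99% and endothelium from 4.20% to 4.63%. Erythroid markers went from 0.207% to 0.187%, leukocyte markers from 0.0743% to 0.0654%, neural and glial markers from 0.0243% to 0.0369% and the liver miRNA Mir122 from 0.0491% to 0.0176%. The log2 ratio was 0.36 for Mir143 and 0.056 for Mir145a (not called) of stroma and 0.14 for Mir126a of endothelium, beside 0.18 for Mir26b. In the striated muscle list only Mir206 fell, at -0.28. Every other listed muscle gene had a positive ratio, not always called, and the median over the 8 tested was 0.32. Nearly all neural and glial reads lay on Mir338, at 0.59. The part of these differences in the ratio of Mir26b was not tested.

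The copies had ratios in the same direction that did not pass the test. Mir26a-1 was at 1.22-fold in replicate 2 over replicate 1 (95% interval 0.785 to 1.90, exact adjusted p = 0.545) and Mir26a-2 at 1.07-fold (0.832 to 1.38, exact adjusted p = 0.744). Both intervals include the 1.13-fold of Mir26b, so at this depth a shift of that size could not be seen in the copies. The median log2 ratio of all 395 genes was -0.03. Scaled to all reads in the file, which lowers each log2 ratio by 0.15, Mir26b stood at 0.027 (exact adjusted p = 0.000345) and Mir26a-2 at -0.052. The direction in Mir26a-2 thus depends on the scaling.

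The genes closest to each miR-26 gene in mean CPM show what company these levels keep. Next above Mir26b stood Mir143 at 25998 ± 4515 CPM and Mir99a at 23562 ± 893 CPM, and next below it Mir335 at 21942 ± 2611 CPM and Mir431 at 19858 ± 1530 CPM (SD, n = 2). The values of the 2 animals overlapped with those of Mir26b for Mir143, Mir99a and Mir335, but not for Mir431. Around Mir26a-2 were Mir378c, Mir3544, Mir193a and Mir187, between 33.5 and 35.8 CPM. Around Mir26a-1 were Mir452, Mir190b, Mir7b and Mir1198, between 11.7 and 12.4 CPM. All 8 of these neighbours of the copies overlapped in range with the copy concerned, so the exact ranks 217 and 259 are not resolved.

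**Figure D4:**
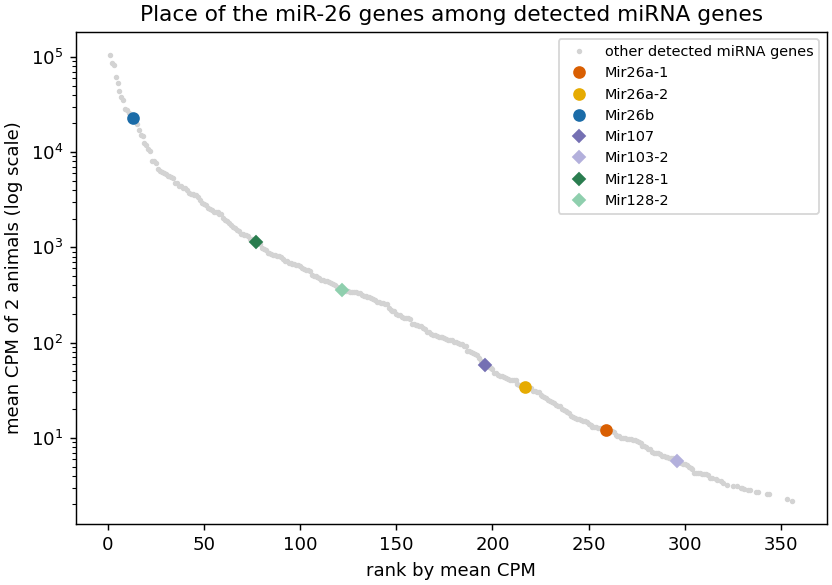
Mean CPM of the 2 animals on a log scale against rank for the 332 detected miRNA genes, with the miR-26 genes as circles and genes of the miR-103/107 and miR-128 families as diamonds. Mir26b stands at rank 13, and its relatives Mir26a-2 and Mir26a-1 at ranks 217 and 259.

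Other families with copies in related hosts give the setting. Mir103-1, Mir103-2 and Mir107 lie in genes of the pantothenate kinase family, and Mir128-1 and Mir128-2 in R3hdm1 and Arpp21. Their shared strands are shown with the seed in capitals.
miR-103-3p, from Mir103-1 and from Mir103-2: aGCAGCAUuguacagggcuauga
miR-107-3p, from Mir107: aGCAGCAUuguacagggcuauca
miR-128-3p, from Mir128-1 and from Mir128-2: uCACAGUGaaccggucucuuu
As in miR-26, a pair of copies has an identical strand, and miR-107-3p differs from miR-103-3p by a single substitution, G22C, with the base of miR-103-3p first. Unlike Mir26b, the single-copy relative Mir107 shares 5 of its 66 windows of 22 bases with the Mir103 genes. Its own reads may also have been set aside. Mir103-1 and Mir103-2 share 8 and 10 of their 65 windows with another precursor, beside 4 in each of Mir26a-1 and Mir26a-2. How far the reads set aside differ between the families was not tested.

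The miR-103 and miR-107 genes showed a smaller gap than miR-26 in counted reads. Mir107 may itself have lost reads through windows shared with annotated precursors. Mir26b shares none of these windows, but whether its reads match other parts of the genome was not tested. Mir107 had 190 and 248 reads, or 58.5 ± 6.13 CPM, against 24 and 19 reads on Mir103-1 and Mir103-2 together. This is 7.92 reads of Mir107 for each read on the copies in replicate 1 and 13.1 in replicate 2, beside 481.7 and 492.1 for Mir26b. The Mir128 copies were counted at 1151 ± 165 and 353 ± 2.44 CPM (SD, n = 2), a ratio of 2.91 and 3.61 in replicates 1 and 2, near the 3.08 and 2.71 between Mir26a-2 and Mir26a-1. In Mir128-1 and Mir128-2, 2 windows of 22 bases each recur in the other copy. Since miR-128-3p is identical in both, their ratio too covers copy-specific reads only. No test compares these families, because the animals are few and the genes share libraries.

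**Figure D5:**
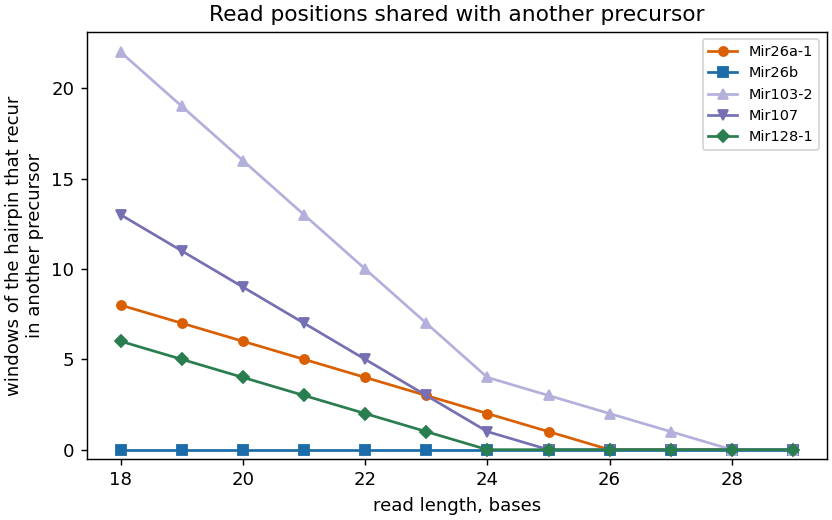
Number of windows of each hairpin that recur in another annotated precursor, for read lengths of 18 to 29 bases. Mir26b stays at 0 throughout, Mir26a-1 reaches 0 at 26 bases, and Mir107 has 5 windows at 22 bases.

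Among all groups of copies, that is genes with 1 symbol up to a last number, the Mir26a pair held rank 17 of 53 by summed CPM, at 46.5 ± 3.33 CPM (SD, n = 2). The 53 groups with 138 genes together held 1.02% of the sense reads, less than Mir26b alone with 2.27%. Reads that matched more than 1 copy were counted on no gene, so these shares compare counted reads and not abundance. In 20 groups every copy had at least 10 reads in both libraries together. The median ratio of the highest to the lowest copy was 3.40 in these groups, from 1 in Mir29b to 98.5 in Mir196a. The Mir26a pair stood at 2.88-fold of mean CPM, and 7 of the 20 groups had a lower ratio.

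Other miRNAs known to repress Ezh2 were listed beside the family, namely the miR-101 genes, Mir214 and the miR-138 copies. Of 6 listed genes 5 were tested, 4 of them higher in replicate 2 and 1 higher in replicate 1, with a median log2 ratio of 0.38. Over all 395 genes tested, 41.3% were called, 17.0% with the higher level in replicate 2 and 24.3% in replicate 1. Their median log2 ratio was -0.03. Mir214, which is known from mesenchymal cells and from muscle differentiation, was the most abundant at 3900 and 2781 CPM in replicates 1 and 2, a log2 ratio of -0.49 (exact adjusted p = 2.62e-153). Mir101b stood at 362 and 472 CPM (log2 ratio 0.38, exact adjusted p = 1.49e-12) and Mir101a at 138 and 173 CPM (log2 ratio 0.33, exact adjusted p = 0.000410). Mir138-1 stood at 39.9 and 73.2 CPM and Mir138-2 at 25.6 and 47.9 CPM, with log2 ratios of 0.87 and 0.90. Mir101c had 0 reads in either library. Mir26b was counted at 5.45 times the level of Mir214 in replicate 1 and 8.65 times in replicate 2. The Mir26a copies together, at 46.5 ± 3.33 CPM (SD, n = 2), lay near Mir138-2 at 36.7 ± 15.7 CPM and Mir138-1 at 56.5 ± 23.5 CPM. The Mir138 genes, like the Mir26a genes, share windows with each other, so their counts carry the same limit.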

How the data were processed

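MicroRNA sequencing was done on total RNA of the gastrocnemius of 2 mice. The authors' deposited values are raw read counts for each miRNA gene, with no normalization. Build mm10 and GENCODE M21 are named in the descriptions deposited with them. For the aligner, trimming and filters, the choice made is not given in the sources used here. Each file holds unstranded, sense and antisense counts, and 4 summary rows that stayed out of totals and tests. The sense column was recognised from the layout and the totals. The 2 arms of a hairpin are counted together, and reads aligned to several places were counted on no gene.

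Sense counts were scaled here to 1e6 (CPM). Detection meant at least 2 CPM in each library. Ratios within a library carry exact intervals and shares Wilson intervals, both of 95%. Log2 ratios had 0.5 added to each count. Mature sequences and hairpins came from RefSeq (GRCm38.p6), host genes and precursors from GENCODE M21. Hairpins were aligned end to end with Biopython 1.88. Alternatives used TMM factors from edgeR 4.0.16 and size factors from DESeq2 1.42.0 in R 4.3.3, with Python 3.11.15 and scipy 1.17.1 otherwise. Intervals and limits cover counting error only, since reads, not molecules, were counted. Nothing beyond the labels shows that the libraries came from separate animals.

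The members and gene lists were chosen with earlier results of these data known. Named genes were the members, the 2 genes above and below each in mean CPM, the miR-103/107 and miR-128 genes, 6 miRNAs known to target Ezh2, the groups of copies with the highest and the lowest ratio, genes sharing a seed with a member, and the cell type markers.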

Additional observations from a re-analysis of the deposited data

How the results depend on the processing

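Scaled to all reads in the file, the mean levels were 4.89 CPM for Mir26a-1, 14.1 CPM for Mir26a-2 and 9247 CPM for Mir26b, and with unstranded counts, whose total is smaller, they were 14.4, 41.3 and 27132 CPM. TMM totals moved these levels by less than 1 SD. Without replicate 1 or replicate 2, they ran from 10.8 to 13.2, 33.3 to 35.7 and 21268 to 24048 CPM, the ratio of Mir26b to the copies ran from 481.7 to 492.1 and the share of Mir26a-2 from 73.1% to 75.5%, and dividing by gene length or dropping strand moved neither by 1 SD. Of 163 genes that differed between the libraries, 67 higher in replicate 2 and 96 higher in replicate 1, 28 also differed by at least 2-fold. The split was 89 and 78 with median-of-ratios size factors and 32 and 146 when scaled to all reads in the file. Under that last scaling the log2 ratio of Mir26a-2 turned to -0.052, with no call in either case. Mir26b kept its direction and its call under all 5 other scalings, filters and strand settings (log2 ratio 0.027 to 0.23) but misses a 2-fold limit at 0.18. The library test cannot be run without a replicate. No paired analysis was possible because there is a single group. The 38 to 52 reads of Mir26a-1 limit what can be said of the copies.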
